A study of Mus musculus with 10 samples.

Results

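The genes described here are the septins of the sperm annulus and their relatives, namely Sept2, Sept4, Sept6, Sept7, Sept8, Sept9, Sept10, Sept11 and Sept12. They were taken by gene symbol from a table of 15507 genes, and all 9 were listed and passed the filter on low values. Germ cells were prepared from each of 5 wild type (WT) mice and 5 knock-in (KI) mice, all 45 days old, and 1 RNA-seq library was made per mouse. KI mice are homozygous for a targeted allele that carries human GRTH (DDX25) with the R242H mutation, and WT mice carry the mouse gene, Ddx25. GRTH is a testicular RNA helicase. The cell suspension was obtained by collagenase and trypsin dispersion followed by straining, so that it holds spermatogonia, spermatocytes and spermatids together. The unit throughout is the normalized count, which is the number of reads on a gene divided by a size factor of the library.

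Septins are GTP-binding proteins that assemble into hetero-oligomers and from these into filaments and rings at membranes. They fall into the SEPT2, SEPT3, SEPT6 and SEPT7 subgroups, and a filament takes its subunits from different subgroups, with SEPT7 as the subunit common to nearly all filaments. In the spermatid, septins build the annulus, a ring that forms at the base of the growing flagellum and later separates the midpiece from the principal piece of the sperm tail. SEPT4 and SEPT12 are the annulus septins best known from male infertility, and loss of SEPT4 in mice leaves sperm without an annulus.

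The stretch that all septins share is the phosphate-binding loop (P-loop) of the GTP-binding domain. It is shown so that the members can be compared base by base, and it does not by itself sort them into subgroups. Each line gives 24 bases of coding sequence, 5′ to 3′, read from the GENCODE annotation and transcripts of GRCm38 (mm10), and capitals mark the codons for the closing glycine, lysine and serine of the loop. SEPT2 subgroup, then SEPT7, SEPT3 and SEPT6 subgroups:
Sept2: ggtgaatctggtctaGGAAAATCA
Sept4: ggagaatctggtctgGGTAAATCC
Sept7: ggtgaatctggactgGGAAAGTCG
Sept9: gggcagagcggcctcGGGAAGTCC
Sept12: gggcagagtgggctaGGCAAGTCC
Sept6: ggggagacaggtttgGGCAAGTCC
Sept8: ggcgaaactgggattGGCAAGTCC
Sept10: ggggagactggaattGGAAAATCA
Sept11: ggtgagacaggtattGGCAAATCC

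Within a subgroup these windows differed at 4 to 7 bases (median 5 over 8 pairs), and between subgroups at 4 to 11 bases (median 8 over 28 pairs). Over whole transcripts, the longest run shared exactly by any pair of members was 26 bases, in Sept6 and Sept11 and in Sept8 and Sept11, and the shortest such longest run among the 36 pairs was 11 bases. No overlap in exons with another annotated gene was found for the members, except for Sept6, which shares 308 exon bases with the antisense gene Gm15008. Whether reads were counted by strand is not given in the sources used here, so reads of these genes cannot be told apart over those bases.

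Septin levels differed by more than 2 orders of magnitude between members when they were set per length. In WT libraries Sept12 was the highest with 1402 ± 53.9 normalized counts per kilobase of exon (mean ± SD, n = 5 here and below). Sept4 followed with 1027 ± 126, Sept10 with 878 ± 73.6 and Sept2 with 804 ± 54.4 per kilobase. Sept12 was above Sept4 in every library, whereas the ranges of Sept4 and Sept10, and those of Sept10 and Sept2, overlapped. Sept7, the general filament subunit, stood at 312 ± 29.8 per kilobase in WT, below all WT libraries of Sept2. Sept9 with 90.3 ± 15.6 and Sept6 with 48.4 ± 10.2 overlapped in their ranges. Sept8 with 11.3 ± 1.26 and Sept11 with 6.37 ± 0.343 per kilobase were the lowest members.

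KI germ cells kept the same members at the top and bottom of the order. Sept12 again stood highest, with 1226 ± 152 per kilobase in KI, and Sept8 and Sept11 lowest, with 16.6 ± 2.51 and 8.22 ± 2.55. By its mean, Sept2 with 827 ± 68.5 stood above Sept4 with 807 ± 71.3 and Sept10 with 718 ± 53.8 per kilobase in KI. The KI ranges of Sept2 (746 to 899) and Sept4 (761 to 932) overlapped, so their order was not settled. Ranges of Sept4 and Sept10, and of Sept10 and Sept2, overlapped in KI as well. Of the summed level of the 9 members per kilobase, Sept12 made up 30.6% ± 1.54 in WT and 30.1% ± 2.34 in KI. The share of Sept4 was 22.4% ± 2.28 in WT and 19.9% ± 0.871 in KI, and that of Sept2 was 17.6% ± 0.965 and 20.4% ± 1.57. With the longest transcript as the length in place of all exons, Sept4 ranked above Sept2 in KI. A single length per gene takes no account of the isoforms used in these cells.

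**Figure D1:**
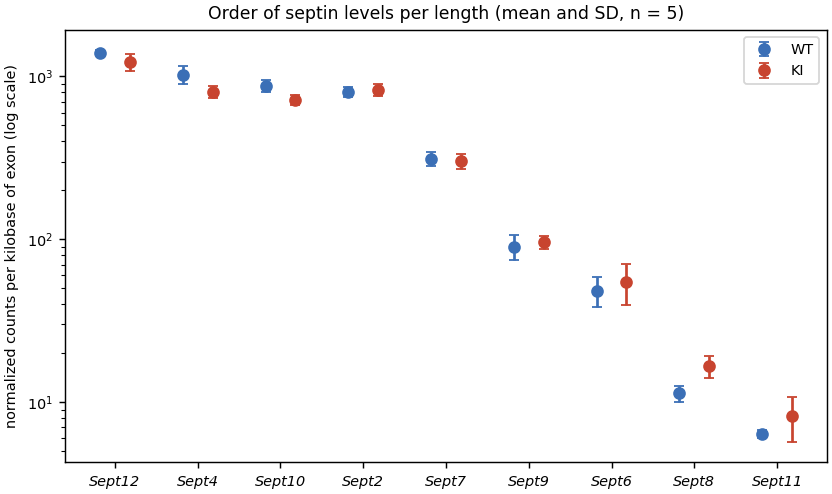
Levels of the 9 septins per length. The y axis gives normalized counts per kilobase of exon on a log scale, points are means and bars SD over 5 libraries, with WT in blue and KI in red. Sept12 leads in both genotypes, at 1402 in WT and 1226 in KI, and Sept11 is lowest, at 6.37 and 8.22.

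The genotypes were then compared gene by gene. Reads on genes numbered 12722086 to 16422347 per library, so that a count of 3 reads corresponds to at most 3.62 normalized counts, whereas the lowest member in any library had 46 reads. Mouse Ddx25 had 5198 to 11101 normalized counts in WT libraries, 146 to 194 in KI libraries 1 to 3, and 2.88 and 1.84 in KI libraries 4 and 5, at or under the value of 3 reads. Libraries 1 to 3 and libraries 4 and 5 also differ in mean read quality in the supplementary data of the study, and are called library sets below. Summed normalized counts of all genes were lower in KI (12939539 to 14599434) than in WT (15456693 to 16736057), so the choice of scaling bears on every difference. Markers of late spermatids were far lower in KI, with summed counts of 26287 to 56764 against 206045 to 374885 in WT, and all 7 passed both thresholds. Markers of round spermatids summed to 11449 to 17235 in KI and 18083 to 20524 in WT, without overlap in the deposited scaling. In that scaling 3 of 7 round spermatid markers passed as lower. With libraries scaled to their total of reads on genes, 1 of the 7 did (Catsper3). In these mixed cells, fewer cells of a type and less RNA per cell cannot be told apart.

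Of the 9 septins, Sept4 and Sept10 fell and Sept8 rose in KI germ cells, and the other 6 did not pass the test. The test was limma on log2(normalized count + 1) with Benjamini-Hochberg adjustment over 15389 genes at an adjusted p of 0.05, which 22.9% of all genes tested passed (9.65% higher and 13.3% lower in KI). No member passed the adjusted p together with a fold change of 1.5 in this fit, which 14.4% of all genes did (6.13% higher and 8.22% lower). At an unadjusted p under 0.05, 1 member was higher and 3 were lower, against 2493 higher and 2829 lower of the 15389 genes tested. On recovered reads, edgeR and DESeq2 each also had 3 members past the adjusted p and 0 past both thresholds. Without KI library 2, KI library 3 or WT library 2, Sept8 was the 1 member past the adjusted p. The median log2 fold change was 0.04 over the 9 members and 0.03 over all genes tested. In 2 members, Sept8 and Sept10, the libraries of the genotypes did not overlap, as was so for 17.7% of all genes tested (6.80% higher and 10.9% lower in KI).

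Sept4, a SEPT2-subgroup septin of the annulus, lies on chromosome 11 (chr11:87566689-87590544, plus strand, as deposited on mm10). Its WT libraries 1 to 5 had 1867, 2148, 2038, 1535 and 1976 normalized counts. The KI libraries 1 to 5 had 1448, 1417, 1431, 1737 and 1483. All KI libraries but library 4 were below the lowest WT library, and WT library 4 was the low one of its group. The level in KI was 0.786 times that in WT (1503 ± 133 against 1913 ± 234.5), and the log2 fold change was -0.34 with an SE of 0.10 (limma adjusted p = 0.0242). Within libraries 1 to 3 the log2 fold change was -0.49 (limma adjusted p = 0.000114) and within libraries 4 and 5 it was -0.12 (adjusted p = 0.706). The difference between the library sets did not pass its own test (interaction 0.37 on the log2 scale, limma adjusted p = 0.264). Leaving out any of KI libraries 1, 2 and 3 or WT libraries 2 and 3 moved the adjusted p past the threshold, to at most 0.0699.

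Sept12, a SEPT3-subgroup septin with testis-restricted expression, lies on chromosome 16 (chr16:4986858-4997853, minus strand). Libraries 1 to 5 had 3497, 3655, 3760, 3708 and 3436 normalized counts in WT. In KI they had 2987, 3285, 3123, 3727 and 2663. Thus 4 of the 5 KI libraries lay below all WT libraries, and KI library 4 lay among the highest. The mean was 3611 ± 139 in WT and 3157 ± 392 in KI, and the log2 fold change of -0.20 (SE 0.09) did not pass the test (limma adjusted p = 0.144), with a 95% interval of the fold of 0.756 to 1.00. Without KI library 4 the log2 fold change was -0.26 (limma adjusted p = 0.0431). Within libraries 1 to 3 it was -0.22 (adjusted p = 0.0328), and within libraries 4 and 5 -0.18 (adjusted p = 0.554).

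Sept10, of the SEPT6 subgroup, lies on chromosome 10 (chr10:59141627-59221848, minus strand) and had a level per kilobase whose range overlapped that of Sept4. Normalized counts of WT libraries 1 to 5 were 2563, 2444, 2173, 2354 and 2087. Those of KI libraries 1 to 5 were 1982, 1926, 1819, 2070 and 1705. The highest KI library was just below the lowest WT library. The mean fell from 2324 ± 195 to 1901 ± 142, and the difference on the log2 scale was -0.29 (SE 0.09, adjusted p = 0.0286 by limma). It was -0.32 within libraries 1 to 3 (adjusted p = 0.00557) and -0.24 within libraries 4 and 5 (adjusted p = 0.354). Leaving out KI library 2, 3 or 5 or WT library 1 or 2 moved the adjusted p past the threshold, to at most 0.0787.

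Sept8, another SEPT6-subgroup gene, lies on chromosome 11 (chr11:53519736-53549606, plus strand) and was the member that rose. It was a low transcript, with 53 to 131 reads per library. WT libraries 1 to 5 had 69.0, 74.0, 64.0, 55.2 and 71.5 normalized counts, and KI libraries 1 to 5 had 103, 96.5, 83.4, 86.5 and 121. Every KI library was above every WT library. The mean rose from 66.8 ± 7.45 to 97.9 ± 14.8, that is by 0.54 on the log2 scale (SE 0.15, adjusted p = 0.0148 by limma). Sept8 passed the adjusted p in each of the 10 fits that left out 1 library, with adjusted p-values of 0.0154 to 0.0396. The log2 fold change was 0.44 within libraries 1 to 3 (adjusted p = 0.0630) and 0.69 within libraries 4 and 5 (adjusted p = 0.131), so that neither set alone passed.

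The other 5 members did not pass the test. Sept2, the subunit after which its subgroup is named, had 2865 to 3434 normalized counts in WT and 2903 to 3497 in KI, and the 95% interval of the fold was 0.902 to 1.17. For Sept7 the ranges were 716 to 893 in WT and 700 to 910 in KI, with an interval of 0.840 to 1.12. Those intervals leave out a fold change of 1.5 in either direction. Sept9, a SEPT3-subgroup septin, had 303 to 494 in WT and 380 to 480 in KI, with an interval of 0.889 to 1.29. Sept6 had 269 to 436 in WT and 215 to 472 in KI, the widest relative spread of any member in WT (coefficient of variation 21.1%). In KI the 3 libraries 1 to 3 of Sept6 (395 to 472) were above libraries 4 and 5 (215 and 303). Sept11 had 48.0 to 55.6 in WT and 51.3 to 103 in KI, where library 5 alone gave 103 and the others at most 65.4, and its limma adjusted p was 0.242.

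**Figure D2:**
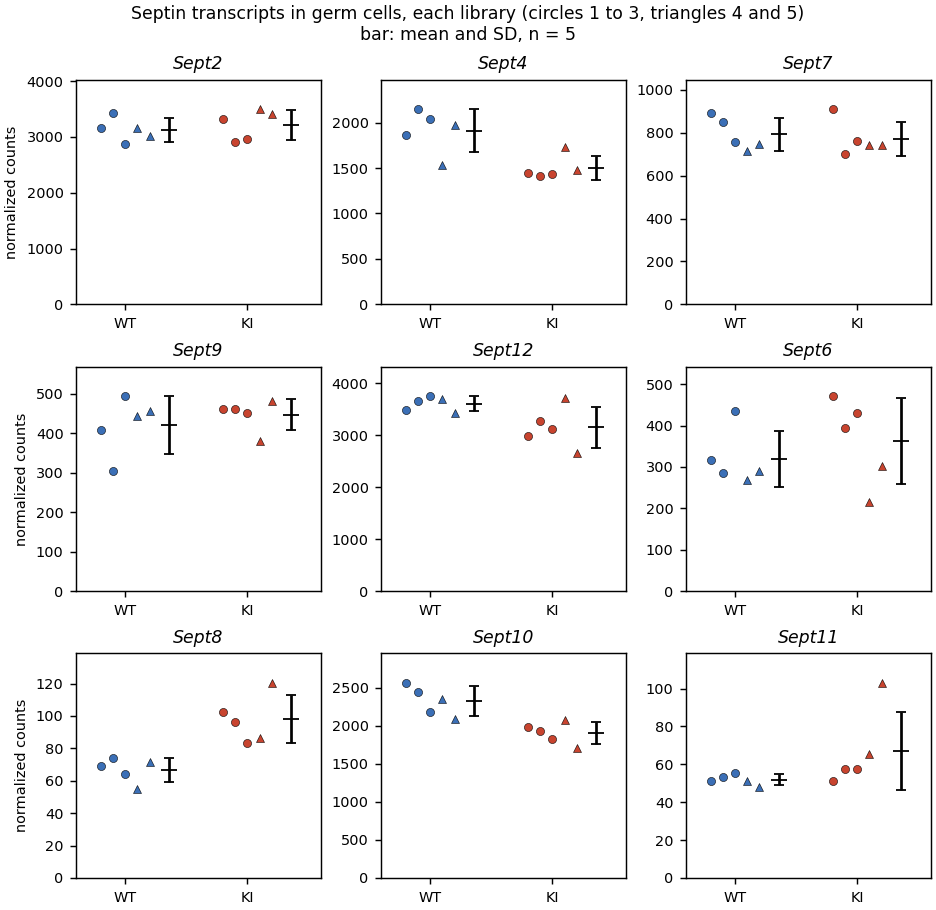
Normalized counts of the 9 septins in each library. The y axes start at 0, circles are libraries 1 to 3 and triangles libraries 4 and 5 of WT (blue) and KI (red), and bars give mean and SD (n = 5). Sept8 libraries (55.2 to 74.0 in WT, 83.4 to 121 in KI) and Sept10 libraries are separated by genotype, and KI library 4 of Sept4 (1737) lies above WT library 4 (1535).

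Which septins passed the test depended on the scaling. The sign turned with it for Sept7 and Sept12, which passed in neither scaling, and not for Sept4, Sept8 or Sept10. When libraries were scaled to their total of reads on genes, the median log2 fold change of all genes moved by 0.23, from 0.03 to 0.25. With that scaling 3 members passed and all 3 were higher in KI, namely Sept8 (0.77), Sept11 (0.54) and Sept2 (0.27), where 40.5% of all genes passed, 32.6% as higher and 7.92% as lower. Sept4 (-0.11), Sept10 (-0.06) and Sept12 (0.03) did not pass with it. With upper quartile scaling Sept4 (-0.25, limma adjusted p = 0.0719) and Sept10 (-0.20, limma adjusted p = 0.0922) did not pass either, and Sept8 did. Scaling to library totals moves all genes nearly alike. Values relative to the median of each scaling, deposited or library totals, are thus the same by construction. Sept4 was -0.37 from that median in both scalings, Sept10 -0.32 and -0.31, Sept12 -0.23 in both, Sept8 0.52 and 0.51, and Sept2 0.01 and 0.02. Whether the share of Sept4 and Sept10 in all reads was lower was not shown.

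**Figure D3:**
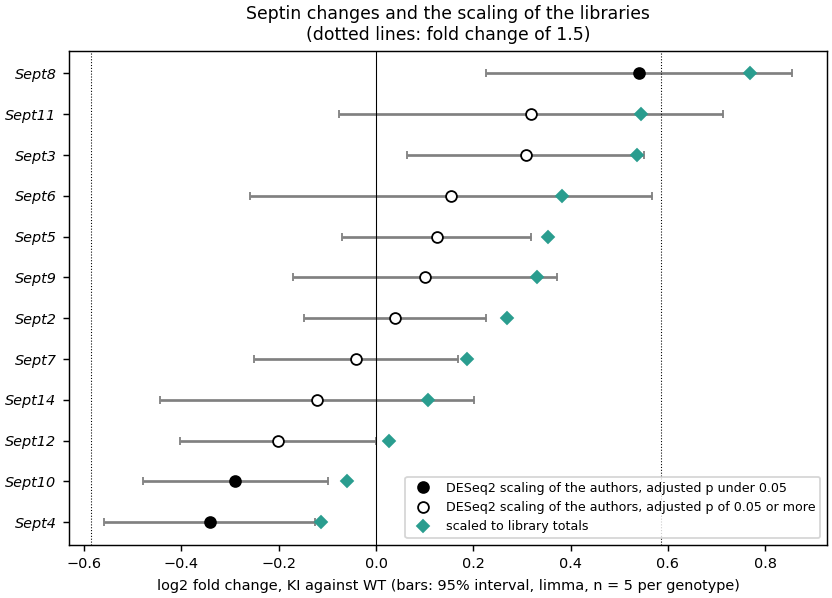
Log2 fold changes of the septins in KI against WT. Circles are changes in the deposited scaling with their 95% interval from limma (n = 5 per genotype), filled where the adjusted p was under 0.05, diamonds are changes after scaling to library totals, and dotted lines mark a fold change of 1.5. Sept4 is at -0.34 and -0.11 and Sept8 at 0.54 and 0.77 in the respective scalings.

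Ratios between septins within a library do not depend on scaling. The ratio of Sept4 to Sept7, the general filament subunit, was 2.09, 2.52, 2.69, 2.14 and 2.65 in WT libraries 1 to 5. In KI it was 1.59, 2.03, 1.88, 2.34 and 2.00. Of the KI libraries, 4 lay below every WT library and library 4 lay within the WT range. The mean ratio was 2.42 ± 0.284 in WT and 1.97 ± 0.271 in KI, a log2 difference of -0.30 (SE 0.12, exact two-sided permutation p = 0.0397, adjusted p = 0.0794 over the 2 ratios tested by this permutation test). With libraries of the same number paired, the exact permutation p of this ratio was 0.125, where 5 pairs cannot give less than 0.0625. Leaving out any of WT libraries 2, 3 and 5 or KI libraries 1, 2, 3 and 5 gave an exact permutation p of 0.0635 to 0.0794 for the ratio of Sept4 to Sept7. Within libraries 1 to 3 the log2 difference was -0.41 (exact permutation p = 0.1, the smallest that 3 against 3 can give) and within libraries 4 and 5 -0.14, where 2 against 2 cannot give a p under 0.333.

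Sept12 and Sept4 were also compared with each other. The ratio of Sept12 to Sept4 was 1.87, 1.70, 1.85, 2.42 and 1.74 in WT libraries 1 to 5 and 2.06, 2.32, 2.18, 2.15 and 1.80 in KI. These ranges overlapped, and WT library 4 held the highest value of all. The log2 difference was 0.14 (SE 0.11) and did not pass the test (exact two-sided permutation p = 0.222, also after adjustment). Without WT library 4 it was 0.23 (exact permutation p = 0.0476), and in libraries 4 and 5 alone it was -0.06.

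**Figure D4:**
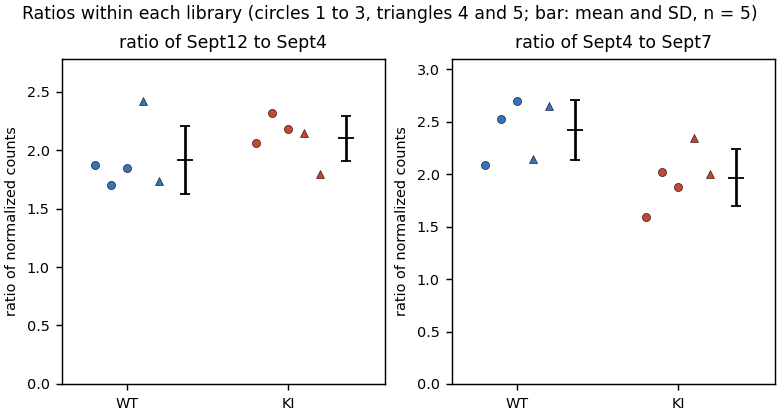
Ratios of normalized counts between septins in each library. The y axes start at 0, circles are libraries 1 to 3 and triangles libraries 4 and 5, WT in blue and KI in red, and bars give mean and SD (n = 5). The ratio of Sept4 to Sept7 averages 2.42 in WT and 1.97 in KI, and the ratio of Sept12 to Sept4 is highest in WT library 4 (2.42).

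The family rows outside the 9 members numbered 3, and none of Sept3, Sept5 and Sept14 passed the limma test, where Sept3 had an unadjusted p under 0.05. Sept3, a SEPT3-subgroup septin known mainly from brain, had 528 to 680 normalized counts in WT and 619 to 853 in KI, and its log2 difference was 0.31 (SE 0.11, adjusted p = 0.0655 by limma). With the replicate number as a block it passed (limma adjusted p = 0.0189), as did 32.0% of all genes tested. Sept3 also passed with library totals (0.54, limma adjusted p = 0.00179), with upper quartile scaling (0.40, limma adjusted p = 0.0174), with a library set term (limma adjusted p = 0.0114) and without WT library 5 (limma adjusted p = 0.0282). Sept5, of the SEPT2 subgroup, had a log2 fold change of 0.12, and its exons share bases with Gp1bb and Gm49601 on the same strand, so that its count is uncertain. With library totals Sept5 passed as higher (0.35, limma adjusted p = 0.00518). Sept14, of the SEPT6 subgroup, was at -0.12. Neither Sept5 nor Sept14 changed its call with the block.

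Other genes of the annulus were Slc26a8, an anion transporter of the annulus, Dnajb13, a DnaJ-family protein found at the annulus and axoneme, and Fam92a (also Cibar1), a membrane-curving protein of the annulus. Dnajb13 fell, and the other 2 of the 3 measured did not pass, where 13.3% of all genes tested passed as lower. Dnajb13 had 3745, 3745, 3413, 2879 and 2761 normalized counts in WT libraries 1 to 5 and 2681, 2740, 2720, 2403 and 1548 in KI. Its genotypes did not overlap, as was so with lower values in KI for 10.9% of all genes tested. Its log2 difference was -0.47 (SE 0.15, adjusted p = 0.0358 by limma). Without KI library 4 or any of WT libraries 1, 2 and 3, the adjusted p of Dnajb13 was 0.0566 to 0.0914. With library totals Dnajb13 was at -0.24 (limma adjusted p = 0.222). Slc26a8 was at -0.09 and Fam92a at -0.17 on the same scale. Slc26a8 was lower in KI within libraries 1 to 3 (-0.29, limma adjusted p = 0.0111) and at 0.20 within libraries 4 and 5 (adjusted p = 0.394), and the interaction did not pass (adjusted p = 0.106). None of the 3 passed both thresholds.

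The septin partners are genes whose proteins bind septins or build cortical rings with them. Of 11 partner genes measured, 4 passed as higher and 1 as lower in KI, against 9.65% and 13.3% of all genes tested. Both thresholds were passed by 3, all higher, against 6.13% of all genes tested. With library totals 9 of the 11 passed, all higher, against 32.6% of all genes, with Anln, Cdc42, Cdc42ep4, Myh10 and Rhoa gained and Cdc42ep3 lost. The list had a median log2 fold change of 0.19. The Cdc42ep genes encode Borg proteins, effectors of the small GTPase CDC42 that bind septins. Among these Cdc42ep5 rose from 119.6 ± 17.3 to 207 ± 41.1 normalized counts, that is by 0.78 on the log2 scale (SE 0.15, adjusted p = 0.00182 by limma). Its WT libraries 1 to 5 had 128, 121, 132, 89.3 and 128, and its KI libraries had 230, 203, 265, 162 and 177. Cdc42ep2 (1.35, adjusted p = 0.00147 by limma) and Cdc42ep1 (0.72, limma adjusted p = 0.0299) also rose but from low levels of 10.7 ± 3.32 and 19.4 ± 4.83. Cdc42ep1 kept its call in 4 of the 10 fits that left out 1 library, losing it without KI libraries 1, 2, 3 or 5 or WT libraries 4 or 5 (limma adjusted p of at most 0.0790).

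Cdc42ep3, the most abundant Borg transcript by normalized counts, moved the other way. Its WT libraries 1 to 5 had 3376, 3553, 3096, 3469 and 2950 normalized counts and its KI libraries 2698, 2692, 2625, 2539 and 2530. Every KI library was below every WT library, at a log2 difference of -0.33 (SE 0.08, adjusted p = 0.00919 by limma), which became -0.10 when scaled to library totals (adjusted p = 0.337). Cdc42ep4 (0.10) did not pass. Myh9, a non-muscle myosin heavy chain, rose by 0.54 on the log2 scale (limma adjusted p = 0.0266, and at most 0.0700 without KI library 5, WT library 1 or WT library 2, where it did not pass), and its relative Myh10 (0.19) did not pass. Rhoa, a small GTPase upstream of cortical rings, had no overlap between genotypes (994 to 1277 against 1341 to 1483) and a log2 fold change of 0.24 (limma adjusted p = 0.0639, 0.0214 with the replicate block). Anln (0.06), which encodes the ring scaffold anillin, Cit (0.11), which encodes citron kinase, and Cdc42 (0.17) did not pass.

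Markers of several cell types moved alongside these genes. Spermatocyte markers (1 of 7 passed, lower, median -0.12) and spermatogonia markers (1 of 6 passed, lower, median 0.14) had overlapping sums, 14321 to 19023 in KI against 16267 to 21674 in WT and 1679 to 2031 against 1482 to 2074. Round spermatid markers had a median of -0.41, and 3 of 7 passed as lower, none of them with a fold of 1.5. With the replicate block 5 of 7 passed as lower, Acrv1 (limma adjusted p = 0.00539) and Spag6 (limma adjusted p = 0.0274) being added. The block also added Zbtb16 (0.39, limma adjusted p = 0.0332) and Kit (0.29, limma adjusted p = 0.0377) as higher among the spermatogonia markers, so that 3 of 6 passed, 2 of them higher. With the block all 6 Leydig markers and 5 of 6 macrophage markers passed as higher, where 32% of all genes tested passed in either direction. With library totals no spermatocyte marker passed, and 2 of 6 spermatogonia markers passed, both higher. All 6 Leydig and all 6 macrophage markers then passed as higher, where 32.6% of all genes tested did. Late spermatid markers had a median of -2.55, so that no septin or measured annulus gene moved as far as the least changed of them (-2.13). The preparations also held transcripts of somatic cells, with Leydig markers summing to 14556 to 25454 in KI and 10124 to 17806 in WT (3 of 6 passed both thresholds, all higher, and 1 to 6 when 1 library was left out) and macrophage markers to 532 to 759 and 337 to 490 (4 of 6 passed, all higher, sums without overlap). Sertoli markers (1 of 8 passed as higher), peritubular myoid markers (2 of 4 tested, higher) and endothelial markers (1 of 4, higher) had overlapping sums. No marker measured was at 0 in any library. The part of these cell types in the changes of Sept4, Sept8, Sept10 and the partner genes was not tested.

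**Figure D5:**
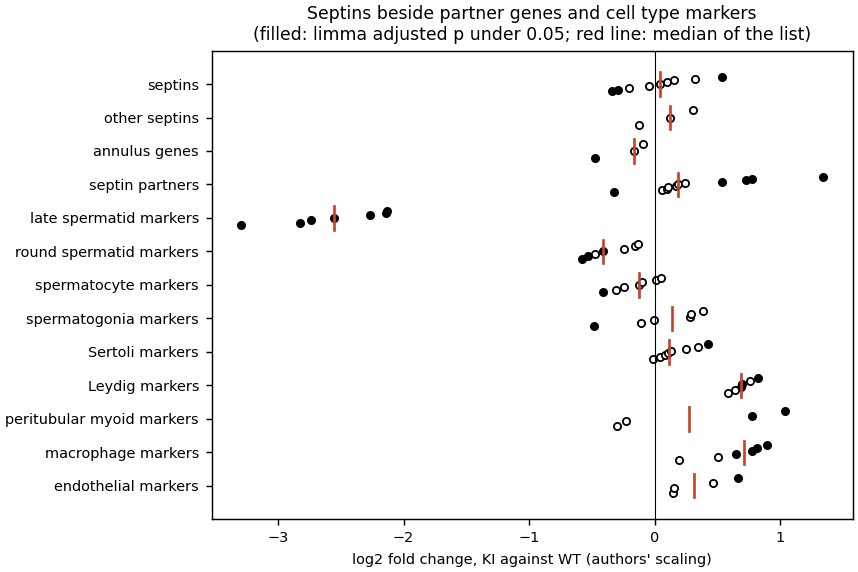
Log2 fold changes of septins, annulus genes, septin partners and cell type markers in KI against WT in the deposited scaling. Each circle is 1 gene, filled where the limma adjusted p was under 0.05, and red lines mark the median of each list. Septins lie between -0.34 and 0.54, and late spermatid markers between -3.30 and -2.13.

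Genes whose pattern over the 10 libraries was nearest to Sept4 and to Sept12 were found by the root mean square difference of centred log2 values among 10526 other genes. For Sept4 these were Enah (0.053), Dgka (0.062) and Trim36 (0.063), where the median of all genes compared was 0.305. Enah, which encodes an actin regulator, had 1525 ± 144 normalized counts in WT and 1215 ± 96.8 in KI. For Sept12 they were Mtx1 (0.046), Fam131a (0.048) and Snx3 (0.052), with a median of 0.260. Mtx1, which encodes a protein of the mitochondrial outer membrane, had 2345 ± 167 in WT and 2045 ± 228 in KI. These distances describe likeness over these libraries and share their scaling.

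Promoters are shown for Sept4, Sept12 and Sept10, of which Sept4 and Sept10 passed as lower in the deposited scaling. Each line gives the 250 bases before a start site, 5′ to 3′ on the strand of the gene, from RefSeq on GRCm38.p6, and 8 of the 9 members had an entry. Capitals mark matches to the letters TGACNTCA, a loose form of the cAMP response element (CRE), or TGACG, its half-site, searched on both strands. CREM, which binds this element, is a known activator of spermatid genes. The Sept4 window is chr11:87566439-87566688 (plus strand, the start site farthest upstream of 4), the Sept12 window chr16:4997853-4998102 (minus strand, 1 of 2 start sites) and the Sept10 window chr10:59221501-59221750 (minus strand):
Sept4: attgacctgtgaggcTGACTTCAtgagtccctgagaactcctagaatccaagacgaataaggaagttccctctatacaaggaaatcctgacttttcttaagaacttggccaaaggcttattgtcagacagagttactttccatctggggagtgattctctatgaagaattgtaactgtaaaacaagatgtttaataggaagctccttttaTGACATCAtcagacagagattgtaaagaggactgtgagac
Sept12: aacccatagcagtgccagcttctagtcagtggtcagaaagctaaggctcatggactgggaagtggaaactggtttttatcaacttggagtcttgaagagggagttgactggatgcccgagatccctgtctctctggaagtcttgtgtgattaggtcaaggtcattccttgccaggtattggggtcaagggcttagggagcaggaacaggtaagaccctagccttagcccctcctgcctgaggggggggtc
Sept10: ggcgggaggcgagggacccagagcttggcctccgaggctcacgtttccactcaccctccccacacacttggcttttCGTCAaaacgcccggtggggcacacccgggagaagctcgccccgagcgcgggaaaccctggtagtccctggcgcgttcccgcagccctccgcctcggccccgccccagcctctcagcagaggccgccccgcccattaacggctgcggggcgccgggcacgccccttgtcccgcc

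The Sept4 window held TGACNTCA at -235 and at -40, counted from the start site to the earliest base of the match. Of 32851 RefSeq promoters of this length, 7.49% held those letters, 17.8% held TGACG and 1.55% held the full element TGACGTCA. The windows of the other 3 Sept4 start sites and both Sept12 windows held none of these letters. Of the members not shown, none of which passed as lower, both Sept2 and both Sept7 windows held TGACG. The Sept11 window held TGACNTCA at -155, and the Sept8 and Sept9 windows held none of these letters. In the Sept10 window, TGACG was present on the other strand at -174. That window lies within the deposited span of Sept10 (chr10:59141627-59221848), so its start site differs from the deposited start of the gene. The letters TATAAA, held by 12.4% of promoters, were in none of the windows of the 8 members matched. These matches describe letters in the windows and say nothing of binding in these cells.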

How the data were processed

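RNA-seq libraries of germ cells from 5 WT and 5 KI mice were analysed, grouped by the genotype in the labels; age, allele and the preparation come from the methods of the study. The authors used STAR on the mm10 genome, quantified RefSeq genes by the E/M method of Partek, and deposited for each gene and library a signal, which is the count divided by the library's DESeq2 size factor. Within each library 100% of values under 5000 reads were whole multiples of 1 read (tolerance 0.1 read), so reads were recovered by division. All columns were assigned to libraries. Recovered reads on genes were 13323024 to 16422347 in WT and 12722086 to 15500582 in KI.

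limma (version 3.58.1, R 4.3.3) with a variance trend was fitted to log2(value + 1) of 15389 genes that passed filterByExpr, with Benjamini-Hochberg adjustment, and was tested on simulated data. Fold changes on this scale understate changes of low genes. Passing refers to an adjusted p under 0.05, and both thresholds add a fold change of 1.5, as in the study. Ratios were tested by exact two-sided permutation over 252 arrangements (smallest p 0.00794). Alternatives were edgeR (4.0.16) and DESeq2 (1.42.0) on recovered reads, other scalings (TMM, upper quartile, library totals), pseudocounts of 0.1 and 10, no filter or a mean of at least 50, other thresholds, a replicate block, a library set term, each library set alone and leaving out each library. Libraries of the same number deviated together from the genotype means (r of 0.306, 0.105, 0.280, 0.216 and 0.462 for numbers 1 to 5). Not every number matched best, since WT library 3 was most like KI library 2, and KI library 2 most like WT library 3. The number was used as a block, from the data only, in alternatives and not in the main fit. Whether the library sets account for these correlations was not tested. Between replicates the chi-square per degree of freedom was 2.66 to 46.7, so no library duplicated another. The floor of 3 reads covers counting error only.

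The named genes are the 9 septins, the other septin rows, the annulus and partner lists, Ddx25, cell type markers, and for Sept4 and Sept12 the 3 genes nearest in pattern (mean over all libraries of 100 normalized counts or more). Members and lists were chosen with earlier results of these data known. Lists were written from general knowledge, and Cby3 of the annulus list and Emcn of the endothelial list were not analysed here. No protein sequence or read-level data were used.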

Additional observations from a re-analysis of the deposited data

Results flagged for a closer look

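In 9 of 56 groups of 5 libraries checked, 1 library stood far from the others by Dixon's criterion (critical value 0.71), where chance gives about 1 in 20 groups. Among the septins, KI library 4 of Sept4 had 1737 normalized counts against 1417 to 1483 in the other KI libraries. WT library 3 of Sept6 had 436 against 269 to 317. KI library 4 of Sept9 had 379.8 against 452 to 480. KI library 5 of Sept11 had 103 against 51.3 to 65.4. WT library 5 of Sept3 had 679.5 against 528 to 552.

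Of the annulus and partner genes, KI library 5 was low for Dnajb13 (1548 against 2403 to 2740) and for Fam92a (274 against 369.6 to 378). WT library 4 of Cdc42ep5 had 89.3 against 121 to 132. The ratio of Sept12 to Sept4 was 2.42 in WT library 4 against 1.70 to 1.87 in the other WT libraries. All 9 of these values are in the results above, except where a result is given without the library concerned. Several come from the same library, and all but that of Sept6 come from libraries 4 and 5. Of the 26 septin, annulus and partner genes tested for a different effect in the library sets, 0 passed the adjusted p of the limma interaction, 5 had an unadjusted p under 0.05, and 0.247% of all genes tested passed.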

How the results depend on the processing

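Over the 26 septin, annulus and partner genes and all alternatives, 513 values kept direction and side of the adjusted p threshold, 41 lost the threshold, 21 gained it and 21 changed sign without passing. The 513 include values of genes that did not pass in the main fit. Of 23 alternatives, Sept8 passed the adjusted p in 21, and Sept4 and Sept10 in 15 each. The cause of these differences was not tested, and some settings leave fewer libraries or genes. Past both thresholds, where 0 septins were, library totals and upper quartile scaling each gave 1 (Sept8), leaving out 1 library gave 0 to 1 (1 without KI library 3) and no fold threshold gave 3. By adjusted p alone, where 3 septins were, libraries 4 and 5 alone gave 0, upper quartile scaling gave 1 and leaving out 1 library gave 1 to 4. For the annulus genes (1 by adjusted p), libraries 1 to 3 alone gave 2, libraries 4 and 5 alone, library totals and upper quartile scaling gave 0, and leaving out 1 library gave 0 to 1. For the partners past both thresholds (3), libraries 4 and 5 alone gave 0, a mean of at least 50 gave 1 with fewer genes tested, and leaving out 1 library gave 2 to 3. For the partners by adjusted p (5), these gave 0, 3 and 3 to 5, and library totals gave 9, all higher, where 40.5% of all genes passed. The log2 difference of the ratio of Sept12 to Sept4 was -0.0627 in libraries 4 and 5 alone and 0.10 to 0.23 without 1 library. For the ratio of Sept4 to Sept7 it was -0.30 with the replicate block (exact permutation p = 0.125), -0.41 in libraries 1 to 3, -0.14 in libraries 4 and 5, and -0.37 to -0.23 without 1 library, where the exact permutation p was 0.0159 to 0.0794. The replicate block also changed the calls of Sept3, Rhoa and markers of spermatogonia, round spermatids, Leydig cells and macrophages given above (Leydig markers past both thresholds were 3 without the block and 5 with it). It changed no other call of a septin, annulus, partner or marker gene. Signs changed for values that did not pass: with library totals for Sept7 (0.19), Sept12 (0.0276), Sept14 (0.11), Slc26a8 (0.14) and Fam92a (0.0632); with upper quartile scaling for Sept7 (0.0523) and Slc26a8 (0.0013); in libraries 1 to 3 for Sept2 (-0.0406), Sept14 (0.11), Anln (-0.0830), Cit (-0.12) and Myh10 (-0.0189); and in libraries 4 and 5 for Sept6 (-0.13), Sept7 (0.0194), Sept9 (-0.0730), Slc26a8 (0.20) and Cdc42 (-0.00858). Without 1 library, Sept7 ranged from -0.10 to 0.0032 and Sept9 from -0.0123 to 0.16, and Cit reached -0.12. Of all genes past both thresholds, 42.7% were higher in KI, 73.1% with library totals, 55.8% with upper quartile scaling, 30.1% in libraries 4 and 5 alone and 34.4% with a mean of at least 50. Depth limits Sept8, Sept11, Cdc42ep1 and Cdc42ep2 most, the low transcripts named here.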
